A study of Mus musculus with 4 samples.

Results

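The 10 enzymes described here make serine and pass its carbon through folate: Phgdh, Psat1 and Psph of serine synthesis, Shmt2, Mthfd2, Mthfd1l and Aldh1l2 of the mitochondrial folate pathway, and Shmt1, Mthfd1 and Aldh1l1 of the cytosolic one. They were taken by name from the 30142 genes that had at least 1 array row with a single gene symbol, and each had exactly 1 such row. The study profiled primary mouse keratinocytes with the Affymetrix MTA-1_0 array, 2 arrays from Glut1-deficient cells and 2 from wild type cells. Glut1, the product of Slc2a1, is the main glucose transporter of the epidermis. Mice were C57BL/6J, 1 week old, with 4 animals per genotype. The labels call the deficiency keratinocyte specific; which Cre driver and which part of the gene were used is not stated there. Cells of both genotypes were grown in keratinocyte medium with 0.05 mM CaCl2, hydrocortisone, 5 ng/ml EGF, bovine pituitary extract, insulin and antibiotics. They were reseeded after 3 days at 2000000 cells on collagen and harvested the next day. Each array held RNA of 2 plates of a genotype combined at random, so p-values measure the spread between pools of 2 plates.

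Serine is made from a glycolytic intermediate in a short cytosolic chain, and it is the main donor of single carbon units to folate. Mitochondria take the carbon from serine, oxidise it on folate and release it as formate, which the cytosol takes up again for purines, thymidylate and methyl groups. The cytosol holds its own copy of each step, encoded by separate genes, and there the flow can run either way. Serine synthesis and the mitochondrial branch are known from other cells as targets of the stress factor Atf4, and the mitochondrial branch as a pathway of proliferating cells.

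All 3 genes of serine synthesis and all 4 mitochondrial genes were higher in the Glut1-deficient cells, whereas of the 3 cytosolic genes 1 was lower and 2 did not pass the test. A gene was called when its limma Benjamini-Hochberg adjusted p, taken over all 30604 rows with a single gene symbol, was under 0.05. Thus 7 of 10 enzymes rose, where 4.11% of all rows did, and 1 of 10 fell, where 3.11% of all rows did. Among the brighter rows, those at or above the median mean signal, where all 10 enzymes lay, the same fit called 7.97% higher and 5.97% lower. Groups did not overlap for 9 of the 10 enzymes, against 49.7% of all rows. The median change of the 10 enzymes was 1.14 on the log2 scale and that of all rows -0.01. Of the 7 rises, 2 passed without Glut1-deficient replicate 1, 5 without Glut1-deficient replicate 2, 3 without wild type replicate 1 and 4 without wild type replicate 2, and the 1 fall was lost in each of these fits. With every row of the table tested 1 rise remained called, and an ordinary linear model called none of the 10. At an unadjusted p under 0.05 that model gave 7 higher and 1 lower, and 4698 of all 30604 rows in either direction.

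The arrays of a genotype correlated at 0.997 in Glut1-deficient and 0.998 in wild type cells across the named rows, and the genotypes at 0.989 to 0.992. Slc2a1 itself had log2 signals of 12.09 and 12.01 in Glut1-deficient cells, against 13.26 and 13.40 in wild type cells (log2 fold change -1.28, SE 0.10, adjusted p = 0.00754, and 0.0508 without Glut1-deficient replicate 1). All 10 enzymes lay above the background floor of each array, which was between 4.36 and 4.87. The keratinocyte markers Krt5 and Krt14 reached at least 16.97 on every array. Krt1, a marker of suprabasal cells, lay at 4.34 and 4.39 in Glut1-deficient and 4.53 and 4.45 in wild type cells, at or near the floor. The other keratinocyte markers of the list lay above the floor on every array. Krt10, also a marker of suprabasal cells, was among them. In RNA from whole cultures, fewer cells of a type and less RNA per cell cannot be told apart.

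**Figure D1:**
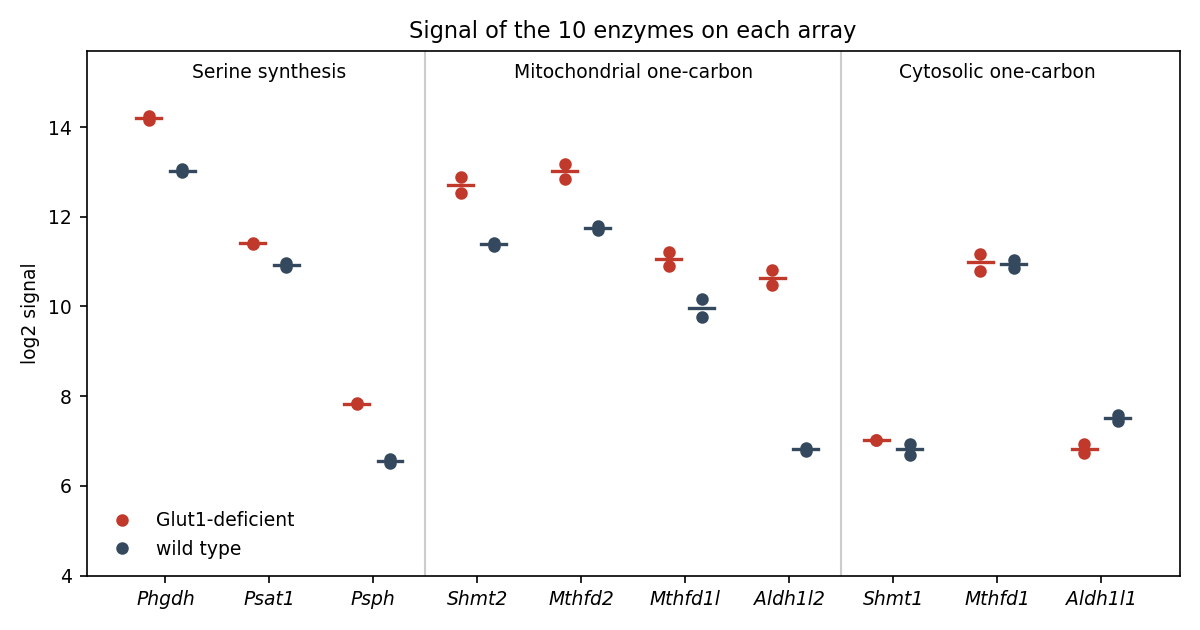
Log2 signal of each enzyme (vertical axis) on each array, Glut1-deficient in red left of wild type in dark blue; points are arrays and short lines are group means (n = 2 per group). The 7 genes of serine synthesis and the mitochondrial branch sit higher on both Glut1-deficient arrays, Aldh1l1 sits lower, and the arrays of Mthfd1 overlap.

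Phgdh, the dehydrogenase that draws phosphoglycerate out of glycolysis and so commits carbon to serine, had log2 signals of 14.26 and 14.16 in Glut1-deficient cells, against 13.00 and 13.06 in wild type cells. Both Glut1-deficient arrays lay far above both wild type arrays, and the arrays of a genotype were close together. The gene rose 2.26-fold (log2 fold change 1.18, SE 0.10, 95% interval 0.93 to 1.42, adjusted p = 0.00761).

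Psph, the phosphatase of the last step, had signals of 7.85 and 7.82 in Glut1-deficient cells, against 6.50 and 6.61 in wild type cells. It rose 2.43-fold (log2 fold change 1.28, SE 0.10, adjusted p = 0.00650), and its interval of 1.03 to 1.52 overlapped that of Phgdh. Psat1, the aminotransferase between them, had signals of 11.40 and 11.42 in Glut1-deficient cells, against 10.88 and 10.97 in wild type cells. The groups did not overlap, but the rise was only 1.40-fold (log2 fold change 0.48, SE 0.10, 95% interval 0.24 to 0.73) and its adjusted p of 0.0490 lay just inside the threshold. The interval of Psat1 lay wholly below those of Phgdh and Psph, a difference that was not tested. Psph kept its call whichever of the 4 arrays was left out, Phgdh lost it without Glut1-deficient replicate 1 (adjusted p = 0.0524), and Psat1 lost it whichever array was left out (adjusted p from 0.118 to 0.248).

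In the mitochondrial branch, Shmt2 moves a carbon from serine to tetrahydrofolate and leaves glycine. Its signals were 12.89 and 12.53 in Glut1-deficient cells, against 11.42 and 11.35 in wild type cells, a rise of 2.51-fold (log2 fold change 1.33, SE 0.15, 95% interval 0.96 to 1.69, adjusted p = 0.0144). Mthfd2, the dehydrogenase and cyclohydrolase that oxidises this carbon to the formyl level, had signals of 13.18 and 12.85 in Glut1-deficient cells, against 11.71 and 11.80 in wild type cells. It rose 2.39-fold (log2 fold change 1.26, SE 0.14, 95% interval 0.90 to 1.62, adjusted p = 0.0150). Mthfd1l, the synthetase that releases the carbon as formate, had signals of 11.21 and 10.91 in Glut1-deficient cells, against 9.76 and 10.16 in wild type cells. It rose 2.15-fold (log2 fold change 1.10, SE 0.18, 95% interval 0.64 to 1.56, adjusted p = 0.0319). The intervals of these 3 consecutive steps overlap, and both Glut1-deficient arrays lay above both wild type arrays for each.

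Aldh1l2 stands at the other exit of the branch, where formyl-tetrahydrofolate is oxidised to CO2 with formation of NADPH. Its signals were 10.81 and 10.48 in Glut1-deficient cells, against 6.84 and 6.79 in wild type cells. The wild type arrays lay close together and well above the background floor, so the change is not a rise out of background. The gene rose 14.2-fold (log2 fold change 3.83, SE 0.14, 95% interval 3.48 to 4.18, adjusted p = 0.00208) and ranked 12th from the top by log2 fold change among the 30604 rows. Phgdh, Psph, Shmt2, Mthfd2 and Mthfd1l ranked between 250 and 390, and Psat1 ranked 2062. Aldh1l2 kept its call whichever array was left out. The calls of Shmt2 and Mthfd2 were lost without Glut1-deficient replicate 1 (adjusted p = 0.0524 and 0.0550), without wild type replicate 1 (0.0548 and 0.0644) and without wild type replicate 2 (0.0539 and 0.0503). Mthfd1l lost its call without either Glut1-deficient array (0.134 and 0.0665) and without wild type replicate 1 (0.102).

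**Figure D2:**
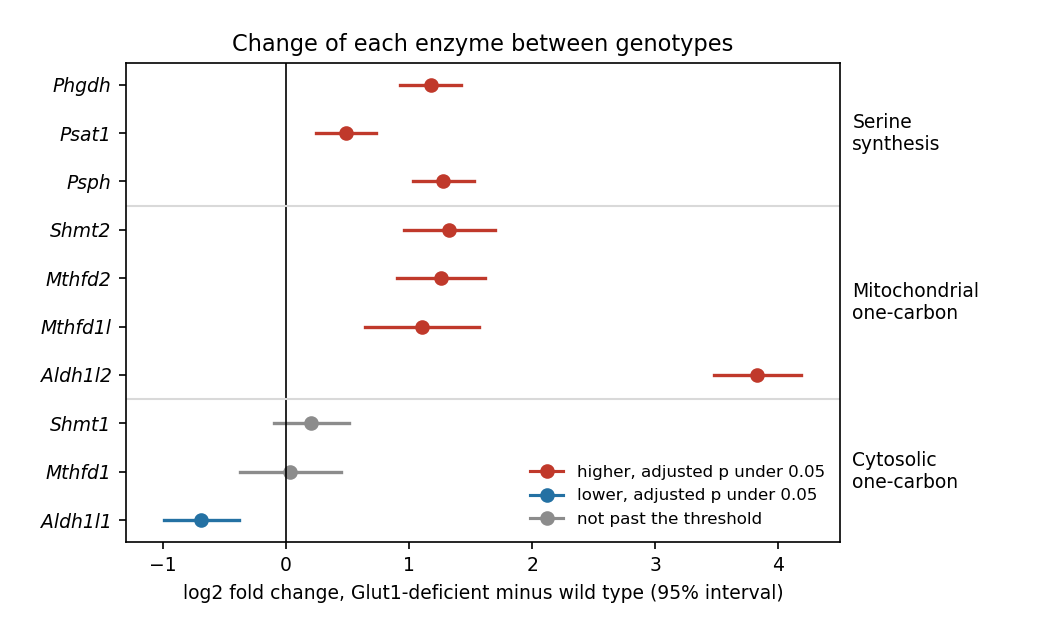
Log2 fold change of each enzyme, Glut1-deficient minus wild type (horizontal axis), with its moderated 95% interval from limma (n = 2 per group); colours give the call. Aldh1l2 stands apart at 3.83, the other mitochondrial enzymes lie between 1.10 and 1.33, and the cytosolic ones lie between -0.69 and 0.21.

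The cytosolic genes gave no rise. Shmt1, the cytosolic counterpart of Shmt2, had signals of 7.02 and 7.02 in Glut1-deficient cells, against 6.69 and 6.94 in wild type cells. The groups did not overlap, but the change of 0.21 (SE 0.12) had a 95% interval of -0.10 to 0.51 and an adjusted p of 0.428. Mthfd1, a single cytosolic protein with the dehydrogenase, cyclohydrolase and synthetase activities, had signals of 11.18 and 10.79 in Glut1-deficient cells, against 10.86 and 11.04 in wild type cells. Its groups overlapped, and the change of 0.04 (SE 0.16) had an interval of -0.37 to 0.44 and an adjusted p of 0.948. The sign of that change depended on the arrays: it was -0.16 without Glut1-deficient replicate 1 and -0.05 without wild type replicate 1. For both genes the interval ends below the log2 fold change of 1.10 of Mthfd1l, the least changed mitochondrial gene. It does not show that they stayed the same.

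Aldh1l1, the cytosolic formyl-tetrahydrofolate dehydrogenase, had signals of 6.93 and 6.72 in Glut1-deficient cells, against 7.59 and 7.44 in wild type cells. Both Glut1-deficient arrays lay below both wild type arrays, and the gene was 1.61-fold lower (log2 fold change -0.69, SE 0.12, 95% interval -0.99 to -0.38, adjusted p = 0.0373). The call was lost after quantile normalization (adjusted p = 0.0608) and whichever array was left out (adjusted p from 0.0883 to 0.170), while the log2 fold change stayed between -0.79 and -0.58.

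Each mitochondrial enzyme was then set against its cytosolic counterpart within the same array. Only the change of this log2 difference between genotypes is read, since signals of different probe sets are not comparable as levels. The difference of Shmt2 minus Shmt1 was 5.87 and 5.52 in Glut1-deficient cells, against 4.74 and 4.41 in wild type cells, a change of 1.12. Mthfd2 minus Mthfd1 gave 2.00 and 2.06 in Glut1-deficient cells, against 0.85 and 0.76 in wild type cells, a change of 1.22. For Mthfd1l minus Mthfd1 the values were 0.04 and 0.12 in Glut1-deficient cells, against -1.10 and -0.87 in wild type cells, a change of 1.07. In all 3 pairs the Glut1-deficient arrays lay above the wild type arrays.

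Aldh1l2 minus Aldh1l1 was 3.88 and 3.75 in Glut1-deficient cells, against -0.75 and -0.65 in wild type cells, a change of 4.52. The pair moved in opposite directions, but most of this change was the rise of Aldh1l2 (log2 fold change 3.83, against -0.69 for Aldh1l1). The mean over the 4 mitochondrial genes minus the mean over the 3 cytosolic ones was 3.65 and 3.51 in Glut1-deficient cells, against 1.55 and 1.55 in wild type cells, a change of 2.03. Aldh1l2 had the largest change of the genes in this mean difference as well. Each of the 4 pairs had a two-sided exact permutation p of 0.333, the smallest that 2 arrays against 2 can give, so this test cannot pass the threshold of 0.05 here whatever the size of the difference. Within the Glut1-deficient group, replicate 1 was above replicate 2 by 0.30 to 0.36 in all 4 mitochondrial genes and by 0.39 in Mthfd1.

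**Figure D3:**
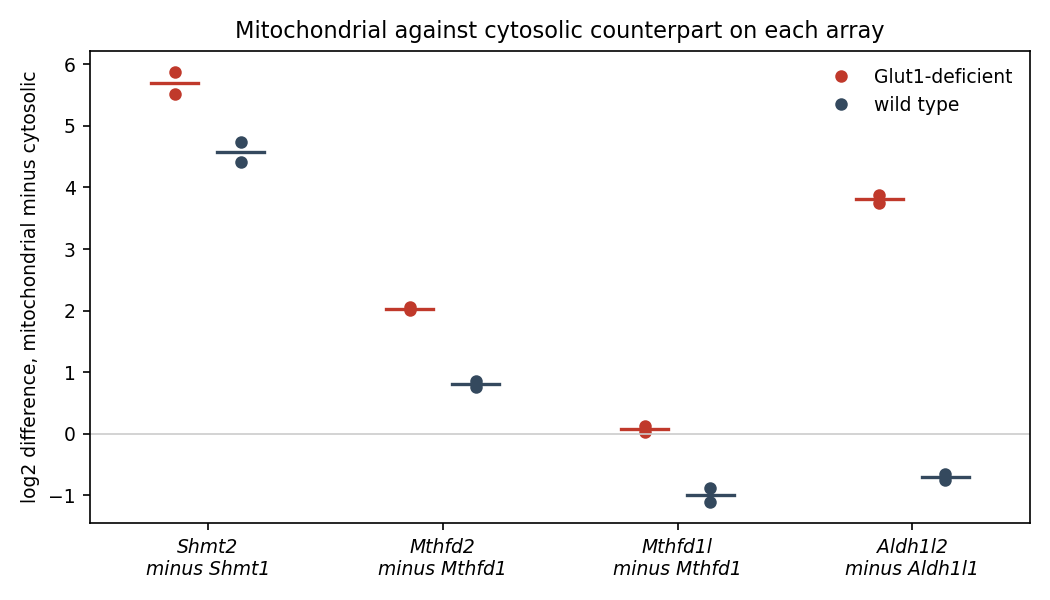
Within-array log2 difference of each mitochondrial enzyme minus its cytosolic counterpart (vertical axis), Glut1-deficient in red left of wild type in dark blue; points are arrays and lines are group means (n = 2 per group). The Glut1-deficient arrays sit about 1 log2 unit higher in 3 pairs and 4.52 higher for Aldh1l2 minus Aldh1l1.

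The promoters of Shmt2 and Mthfd2, which rose, and of their cytosolic counterparts Shmt1 and Mthfd1, which did not pass, are shown to compare genes of matched function. They are RefSeq sequence of build GRCm38.p6, the 250 bases before the annotated start, read 5′ to 3′ on the gene's strand, with every CCAAT or its reverse complement ATTGG in capitals.
Shmt2, chr10:127522445-127522694, minus strand: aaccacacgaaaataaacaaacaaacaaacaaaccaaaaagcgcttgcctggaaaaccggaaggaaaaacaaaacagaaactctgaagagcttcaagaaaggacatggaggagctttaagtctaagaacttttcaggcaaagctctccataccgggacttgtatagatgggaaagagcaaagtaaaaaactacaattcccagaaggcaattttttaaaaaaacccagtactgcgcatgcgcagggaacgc
Shmt1, chr11:60811266-60811515, minus strand: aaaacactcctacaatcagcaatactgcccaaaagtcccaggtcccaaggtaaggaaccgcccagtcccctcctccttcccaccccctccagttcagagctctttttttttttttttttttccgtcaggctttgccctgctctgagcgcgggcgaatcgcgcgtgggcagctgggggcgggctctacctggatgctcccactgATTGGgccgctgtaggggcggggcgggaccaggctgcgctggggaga
Mthfd2, chr6:83317605-83317854, minus strand: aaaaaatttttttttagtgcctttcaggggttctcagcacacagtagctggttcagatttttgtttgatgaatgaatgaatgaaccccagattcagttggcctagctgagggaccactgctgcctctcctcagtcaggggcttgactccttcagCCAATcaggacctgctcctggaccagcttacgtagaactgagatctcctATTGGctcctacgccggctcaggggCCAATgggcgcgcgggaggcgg
Mthfd1, chr12:76254982-76255231, plus strand: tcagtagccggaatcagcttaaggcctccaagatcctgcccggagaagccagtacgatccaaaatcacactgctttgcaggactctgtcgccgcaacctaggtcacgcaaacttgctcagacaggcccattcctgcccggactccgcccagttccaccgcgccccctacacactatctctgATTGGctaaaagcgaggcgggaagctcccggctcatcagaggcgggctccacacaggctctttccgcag
The window of Mthfd2 held 3 CCAAT matches, at 96, 47 and 22 bases before the start, those of Shmt1 and Mthfd1 held 1 each, at 47 and 69 bases, and that of Shmt2 held 0.

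Of the 10 enzymes, 9 had a promoter in the RefSeq table, in 10 windows since Psat1 had 2. Aldh1l2, the enzyme with the largest rise, had none, so no motif was searched for it. CCAAT, the motif bound by NF-Y, was found on either strand in 7 of these 10 windows, against 33.8% of all 32851 windows of the same length. The 7 genes with a match were Phgdh, Psat1, Psph and Mthfd2, which rose, Aldh1l1, which fell, and Shmt1 and Mthfd1, which did not pass. TGATGNAA, a core of the composite element to which Atf4 and C/EBP proteins bind, was searched on both strands (reverse complement TTNCATCA) and matched 0 of the 10 windows and 3.45% of all windows. The E-box CACGTG, bound by Myc and other factors, matched 0 of the 10 and 6.02% of all. Since only CCAAT matched, no match overlapped one of another motif, and the matches describe these 250 bases only.

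Regulators reported to act on serine and folate genes were measured on the same arrays, and 4 of 9 rose and none fell. Among all rows 4.11% were called higher, and among the brighter rows 7.97%. Atf4, the transcription factor of the amino acid response, had signals of 11.84 and 11.71 in Glut1-deficient cells, against 10.73 and 10.77 in wild type cells (log2 fold change 1.03, SE 0.10, adjusted p = 0.0114). The arrays do not measure its translation, through which stress is known to control the factor. Its relative Atf5 rose by 1.12 (adjusted p = 0.0140), the stress factor Ddit3 by 4.77 (0.00208) and the pseudokinase Trib3, a feedback inhibitor of Atf4, by 2.51 (0.0172). Myc had a log2 fold change of 0.37 (adjusted p = 0.229), Nfe2l2, which encodes Nrf2, -0.31 (0.189), Mdm2 -0.16 (0.641), Atf3 0.85 (0.175) and Cebpb 0.56 (0.169), none of which passed. Ddit3 kept its call whichever array was left out. Its second row rose by 4.29. Atf4 lost its call without Glut1-deficient replicate 1 (adjusted p = 0.0588) and without either wild type array (0.0608 and 0.0503), Atf5 lost its own without Glut1-deficient replicate 1 (0.0773) and without wild type replicate 2 (0.0524), and Trib3 without either wild type array (0.0516 and 0.0552).

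Around the 10 enzymes, 56 measured genes of folate handling, glycine and choline catabolism, the methionine cycle, serine and glycine transport and purine synthesis were counted in 6 lists. Of these, 6 rose (10.7%), 3 fell (5.36%) and 47 did not pass, with a median log2 fold change of 0.02. Among all rows 4.11% were called higher and 3.11% lower, and among the brighter rows 7.97% and 5.97%, so these counts lie near the background. The 6 rises lay in the lists of transport and of the methionine cycle with transsulfuration. In the 2 folate lists limma called 0 of 13 measured genes higher (3 at an unadjusted p under 0.05, and 0 called with trended and robust variances).

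The list of serine and glycine transport and use held 5 of these 9 calls, with 4 of 12 measured members higher, 1 lower and 7 not passing. Slc1a4, a carrier of serine, alanine and cysteine, had signals of 10.65 and 10.24 in Glut1-deficient cells, against 8.04 and 8.11 in wild type cells, and rose 5.16-fold (log2 fold change 2.37, SE 0.16, adjusted p = 0.00523). Slc6a9, a glycine transporter, had signals of 10.29 and 9.85 in Glut1-deficient cells, against 7.37 and 7.29 in wild type cells, and rose 6.67-fold (log2 fold change 2.74, SE 0.17, adjusted p = 0.00479). A second row of Slc6a9 disagreed: it lay below the floor on all 4 arrays, with a log2 fold change of -0.33. The neutral amino acid transporters Slc38a2 and Slc1a5 rose by 0.97 and 0.64 (adjusted p = 0.0123 and 0.0280). Sfxn1, the mitochondrial serine importer, had a log2 fold change of -0.04 (95% interval -0.29 to 0.21, adjusted p = 0.893), while its relative Sfxn2 fell by 0.68 (adjusted p = 0.0451); both were named after their values were seen. Slc1a4 and Slc6a9 kept their calls whichever array was left out, Slc38a2 lost its own without replicate 1 of either genotype (adjusted p = 0.0671 each), and Slc1a5 and Sfxn2 did whichever array was left out (adjusted p from 0.0593 to 0.179).

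In the methionine cycle and transsulfuration 2 of 11 measured members rose and 9 did not pass. Cth releases from cystathionine a cysteine with a carbon skeleton that comes from serine. Its signals were 13.51 and 13.24 in Glut1-deficient cells, against 10.76 and 11.12 in wild type cells. The gene rose 5.41-fold (log2 fold change 2.44, SE 0.17, adjusted p = 0.00523). Cbs, which joins serine to homocysteine in the step before, lay at or below the background floor in both genotypes. Ahcyl2, a relative of adenosylhomocysteinase, rose by 0.62 (adjusted p = 0.0495, and 0.0704 to 0.215 when 1 array was left out), and Mtr and Mtrr, methionine synthase and its reductase, had log2 fold changes of 0.45 and 0.36 (adjusted p = 0.108 and 0.0930).

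The folate genes outside the 10 enzymes gave 1 call, a fall. Tyms, the thymidylate synthase that uses folate carbon for DNA, had signals of 8.65 and 8.81 in Glut1-deficient cells, against 9.44 and 9.63 in wild type cells (log2 fold change -0.81, SE 0.12, adjusted p = 0.0244, and 0.0576 to 0.108 when 1 array was left out). Mthfd2l, the second mitochondrial methylenetetrahydrofolate dehydrogenase, had a log2 fold change of -0.49 (SE 0.14, adjusted p = 0.111), with signals of 7.25 and 7.42 in Glut1-deficient cells, against 7.96 and 7.68 in wild type cells. The groups of Mthfd2l did not overlap and its 95% interval of -0.83 to -0.14 lay wholly below that of Mthfd2, its close relative, a difference that was not tested. Slc25a32, the mitochondrial folate carrier, had a log2 fold change of -0.07 (95% interval -0.31 to 0.17), Qdpr, a pteridine reductase, 0.45 (adjusted p = 0.0852) and the folate transporter Slc46a1 0.48 (0.112).

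The list of glycine cleavage and of glycine or choline catabolism had 0 of 9 members called (limma, with 1 at an unadjusted p under 0.05), 4 of them at or below the floor in both genotypes. Gldc, the decarboxylase of the glycine cleavage system, lay there on all 4 arrays. Purine synthesis, which takes up folate carbon, had 1 of 11 members lower, none higher and 10 not passing, with a median log2 fold change of -0.19. The call was Ppat, the amidotransferase of the committed step, at -0.53 (adjusted p = 0.0375, and 0.0951 to 0.202 when 1 array was left out).

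Beside these, 7 of 14 S phase genes outside folate fell and none rose, with a median log2 fold change of -0.64. Among all rows 3.11% were called lower, and among the brighter rows 5.97%. Rrm2 and Rrm1 of ribonucleotide reductase fell by 1.48 and 1.07, Cdc6 by 1.39 and Mcm4 by 0.90. Without Glut1-deficient replicate 1 these 4 had adjusted p-values of 0.0524, 0.0701, 0.0722 and 0.0791, Mcm4 was also lost without either wild type array (0.0924 and 0.0965), and Rrm1 without wild type replicate 2 (0.0573). The part of cell division in the levels of Tyms, Ppat and the 10 enzymes was not tested.

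Among other sources of NADPH, 2 of 8 measured genes rose and 6 did not pass, where 4.11% of all rows and 7.97% of the brighter rows were called higher. Idh2, the mitochondrial NADP-dependent isocitrate dehydrogenase, had signals of 8.94 and 8.74 in Glut1-deficient cells, against 7.43 and 7.57 in wild type cells (log2 fold change 1.33, SE 0.12, adjusted p = 0.00865, and 0.0524 without Glut1-deficient replicate 1). Me1, the cytosolic malic enzyme, rose by 0.76 (adjusted p = 0.0234, and 0.0638 to 0.107 when 1 array was left out). Pgd of the pentose phosphate pathway had a log2 fold change of -0.24 (adjusted p = 0.289).

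**Figure D4:**
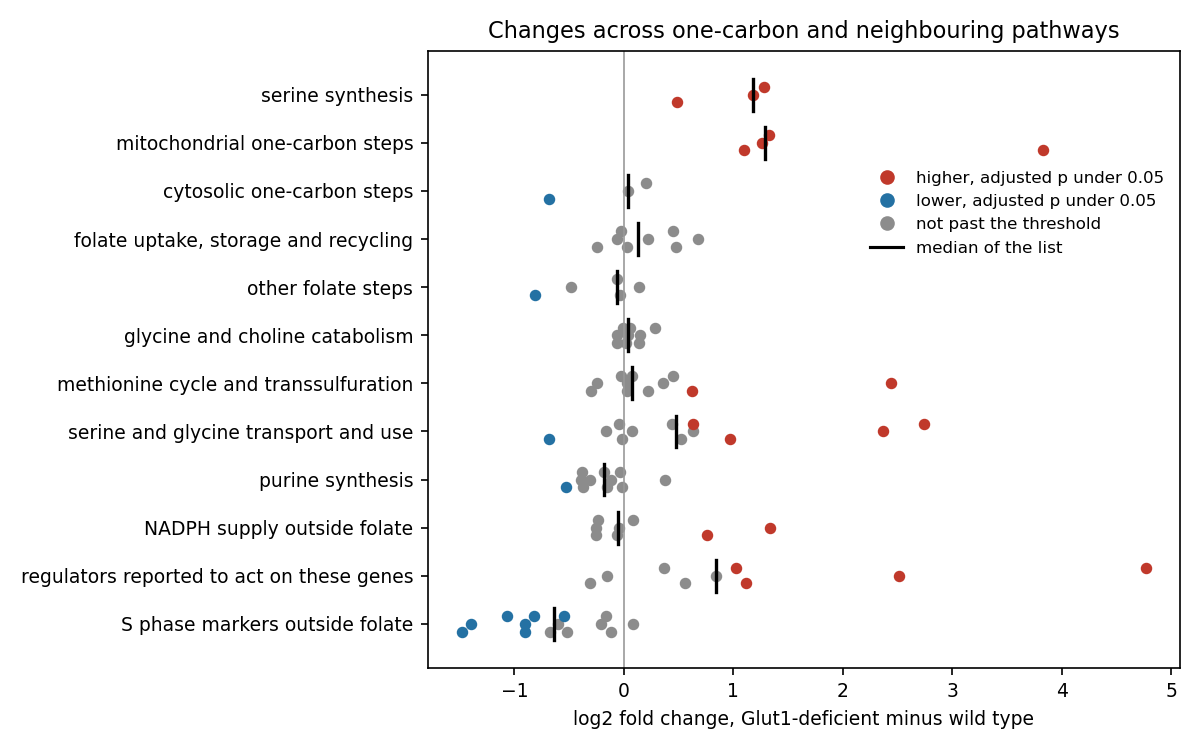
Log2 fold change, Glut1-deficient minus wild type (horizontal axis), of every measured gene in 12 lists; points are genes, colours give the call and black ticks the list medians. The medians of serine synthesis and the mitochondrial steps are 1.18 and 1.29, that of the S phase genes is -0.64, and the 2 other folate lists lie near 0.

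Some markers of other cell types that a skin culture can hold differed between the genotypes too. The counts of these lists stand beside 4.11% of all rows called higher and 3.11% called lower. All 7 melanocyte markers had positive log2 fold changes with a median of 1.04, and 1, Pmel, passed (adjusted p = 0.0341, and 0.0962, 0.0903 and 0.122 without Glut1-deficient replicate 1, wild type replicate 1 and wild type replicate 2). Their summed linear signal was 5324 and 2255 in Glut1-deficient cells, against 1501 and 1061 in wild type cells, with Tyr at or below the floor on 3 of the 4 arrays and Sox10 on 2. The summed melanocyte signal was thus highest on Glut1-deficient replicate 1. The same array was highest for the 4 mitochondrial enzymes and for Phgdh, Psph, Shmt1 and Mthfd1, but not for Psat1 and Aldh1l1. Some of these orders rest on small gaps. Glut1-deficient replicate 1 exceeded replicate 2 by only 0.10 log2 units in Phgdh, 0.03 in Psph and 0.01 in Shmt1. Of 6 measured fibroblast markers 1 passed, Dcn at 1.68, which was lost without either wild type array (adjusted p = 0.0697 and 0.0834). The list had a summed signal of 169 and 200 in Glut1-deficient cells, against 124 and 124 in wild type cells, and Col3a1 and Lum at or below the floor on all 4 arrays.

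Of 6 endothelial markers 1 passed, Kdr at 3.60, while Cdh5, Tek, Tie1 and Cldn5 lay at or below the floor on all 4 arrays; the list summed to 1210 and 806 in Glut1-deficient cells, against 149 and 165 in wild type cells. Of 9 measured immune cell markers 1 passed, Cd68 at 1.95, which was lost without either wild type array (adjusted p = 0.0913 and 0.0756), while Ptprc, Adgre1, Itgam, Cd207, Cd3e, Cd3g and Mcpt4 lay at or below the floor on all 4; the list summed to 756 and 1298 in Glut1-deficient cells, against 342 and 368 in wild type cells. Positive log2 fold changes were found for 2 of 6 endothelial and 2 of 9 immune cell markers, with medians of -0.01 and -0.05. Keratinocyte markers summed to 520303 and 431710 in Glut1-deficient cells, against 643623 and 697165 in wild type cells. Only 1 of the 8 had a positive log2 fold change, and their median was -0.38. At an unadjusted limma p under 0.05, 6 of the 7 melanocyte markers were higher. Of all 30604 rows, 6720 lay under that threshold in either direction. Of the 8 keratinocyte markers, 5 were lower at it. After adjustment 1 was called lower, Col17a1 at -0.86, and this call was lost whichever array was left out. The part of other cell types in the enzyme levels was not tested.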

How the data were processed

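The submitters deposited 1 table of log2 signals per transcript cluster, for which the submitters' processing notes name RMA in Affymetrix Expression Console and the labels name SST-RMA. RMA corrects background, equalises arrays and summarises probes. A change common to most genes is therefore lost, and SST-RMA folds may differ from plain RMA. Versions are not stated. The number of arrays limits the precision.

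Of 72688 rows, 6732 were controls, 30604 had 1 gene symbol, 2146 several and 33206 none. Entrez identifiers of 22818 rows matched RefSeq (GRCm38.p6), the source of 827 updated symbols and of the promoters. Rows with 1 symbol were fitted with limma 3.58.1 (lmFit, eBayes, two-sided, no replicate block) in R 4.3.3, with Benjamini-Hochberg adjustment over all 30604 rows and a threshold of 0.05. Folds are Glut1-deficient minus wild type, with moderated SE and 95% intervals. The brightest row stood for a gene. The floor was the 95th percentile of 23 background control rows per array. Genes of the wider lists were picked by smallest p, up to 4 called members or else up to 2. Some genes were named outside this rule, among them Mthfd2l, Slc25a32, Cbs, Mtr, Mtrr, Gldc and Pgd. Chdh and Dld, which the rule picked, are not described. The members, lists and motifs were chosen with earlier results of these data known. Arrays with the same number share no animals by label, and their deviations from the group means correlated at -0.233. Alternatives covered normalization, rows tested, variance model, replicate block, rows per gene and each array left out.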

Additional observations from a re-analysis of the deposited data

How the results depend on the processing

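The directions of the 8 called enzymes held under all 12 alternatives, but most of these could not have reversed them. The alternatives of rows tested, variance model, replicate block and rows per gene left each enzyme's log2 fold change as it was. The groups did not overlap for any of the 8, so leaving out 1 array could not turn a sign. Their calls rest on moderated variances over 2 arrays per genotype. An ordinary linear model called 0 of 30604 rows (4698 at an unadjusted p under 0.05), hence 0 enzymes and 0 genes of the wider lists (7 enzymes higher and 1 lower unadjusted), with the same log2 fold changes of 1.18 for Phgdh, 0.48 for Psat1, 1.28 for Psph, -0.69 for Aldh1l1, 1.33 for Shmt2, 1.26 for Mthfd2, 1.10 for Mthfd1l and 3.83 for Aldh1l2 and adjusted p from 0.209 to 0.324. Testing every row of the table, 72688 in all, left 74 calls (9737 unadjusted), with 1 enzyme, Aldh1l2, higher, 0 lower, and 0 genes of the wider lists; more rows were adjusted for and the moderated SE also changed (0.11 against 0.10 for Phgdh), and these effects were not separated. Quantile normalization left 0 enzymes lower, with Aldh1l1 at -0.65 (adjusted p = 0.0608), and 1 gene of the wider lists lower; the cause was not tested. Psat1 at 0.48 lost its call with trended and robust variances (adjusted p = 0.0621) and with a replicate block (0.100), which left 6 enzymes higher and 1 lower, 1849 rows, and changed no other enzyme's call. The labels tie no arrays, so the block stands for a shared number only. The 3043 calls among the brighter rows, against 2209 in the whole fit, held 7 enzymes higher and 1 lower.

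With 1 array left out, fewer samples gave 314 to 1214 rows, 2 to 5 enzymes higher, 0 lower (7 higher and 1 lower at an unadjusted p under 0.05 each time), and 3 to 4 genes of the wider lists higher and 0 lower. Log2 fold changes ran from 1.13 to 1.23 for Phgdh, 0.44 to 0.53 for Psat1, -0.79 to -0.58 for Aldh1l1, 1.15 to 1.50 for Shmt2, 1.09 to 1.43 for Mthfd2, 0.90 to 1.31 for Mthfd1l and -0.16 to 0.23 for Mthfd1. Without each array the change of Shmt2 minus Shmt1 ran from 0.94 to 1.30, of Mthfd2 minus Mthfd1 from 1.18 to 1.27, of Mthfd1l minus Mthfd1 from 0.95 to 1.18 and of Aldh1l2 minus Aldh1l1 from 4.45 to 4.58. Under quantile normalization they were 1.10, 1.19, 1.06 and 4.52.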
